A study of Mus musculus with 12 samples.

Results

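Nuclear hormone receptors are transcription factors whose activity is set by small fat-soluble ligands or, for the orphan members, by no known hormone. The 35 receptors described here were picked by gene symbol, by a rule that uses no measured value, from the 24890 features of the deposited tables, and each stood at 1 locus. They were measured by RNA sequencing in 12 libraries, 3 from each of 4 groups, in FPKM (fragments per kilobase of exon per 1 M mapped fragments). The groups were adipocytes of inguinal adipose tissue (IAT, a subcutaneous depot), adipocytes of epididymal adipose tissue (EAT, a visceral depot), stromal vascular cells (SVCs) of IAT and SVCs of EAT. All came from male C57BL/6J mice aged 18 weeks, fed a normal chow diet, with no treatment and no mutation given in the labels. Collagenase I had been used to part the adipocytes from the SVCs, which are the mixed non-fat cells of the tissue, so that each library is a bulk sample. The labels do not say that the 3 libraries of a group came from separate mice, and p-values therefore measure the spread between libraries, which may be technical.

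Most receptors of this superfamily bind DNA at short hexamer repeats, many of them as a pair with a retinoid X receptor (RXR), the shared partner of the retinoic acid, thyroid hormone, vitamin D, fatty acid, oxysterol and bile acid receptors. Steroid receptors bind as pairs of themselves, and some orphan receptors bind alone. In adipose tissue the superfamily is known for PPAR gamma, the main driver of fat cell formation, and for glucocorticoid, thyroid hormone and retinoid control of lipid storage and heat production.

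Depth was 14.1 M to 24.6 M fragments per library, estimated from the confidence bounds that the tables give with each value, and 10718 to 12418 features reached 1 FPKM. The fraction labels matched their markers: Adipoq, the adipocyte hormone adiponectin, averaged 3460 ± 218 FPKM in IAT adipocytes, 4150 ± 317 FPKM in EAT adipocytes, 21.7 ± 1.27 FPKM in IAT SVCs and 7.18 ± 0.648 FPKM in EAT SVCs (SD, n = 3 each). The makeup of the SVCs differed between depots. All 7 mesothelial markers were lower in IAT SVCs, with sums of 1.54 to 2.29 FPKM against 412 to 480 FPKM in EAT SVCs, and 1 of them was at 0 in every IAT SVC library. Summed macrophage markers reached 2170 to 2380 FPKM in IAT SVCs and 4030 to 4220 FPKM in EAT SVCs, and 83.9 to 120 FPKM in IAT adipocytes against 449 to 564 FPKM in EAT adipocytes. T cell markers summed to 215 to 328 FPKM in IAT SVCs and 36.3 to 39.6 FPKM in EAT SVCs, and skeletal muscle markers to 78.1 to 94.2 FPKM in IAT SVCs and 9.25 to 9.83 FPKM in EAT SVCs. Replicate 1 of EAT adipocytes stood apart, at r = 0.982 to 0.985 with the others of its group across genes, which are not independent replicates. With genes sorted by exon length into 4 equal bins, its median deviation from the other EAT adipocyte libraries was 0.245 in the shortest bin and -0.195 in the longest (log2).

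Adipocytes and SVCs each carried a broad set of receptors at differing levels. FPKM is scaled to length, so levels can be compared between genes. Ranks given here are among the 35 listed receptors only. Pparg, which is not one of them, averaged 208 FPKM in IAT adipocytes, 227 FPKM in EAT adipocytes, 46.7 FPKM in IAT SVCs and 35.4 FPKM in EAT SVCs. Of the 35, the highest in adipocytes were Nr1h3, the oxysterol receptor LXR alpha, with 58.8 ± 2.03 FPKM in those of IAT and 63.1 ± 1.63 FPKM in those of EAT, and Rxra, with 35.1 ± 2.93 FPKM in IAT adipocytes and 43.1 ± 9.38 FPKM in EAT adipocytes. In SVCs the order was led by Nr1h2 (LXR beta), with 42.7 ± 3.31 FPKM in IAT SVCs and 43.2 ± 5.6 FPKM in EAT SVCs, and by the retinoic acid receptor Rarg, with 35.3 ± 2.3 FPKM in IAT SVCs and 35.1 ± 1.54 FPKM in EAT SVCs. Nr1h2 and Rarg did not overlap in SVCs of either depot, whereas Thra and Nr3c1, the next in order, did not differ beyond their spread in IAT SVCs. The 35 receptors summed to 310 ± 8.32 FPKM in IAT adipocytes, 305 ± 23.4 FPKM in EAT adipocytes, 251 ± 10.3 FPKM in IAT SVCs and 277 ± 15.3 FPKM in EAT SVCs.

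**Figure D1:**
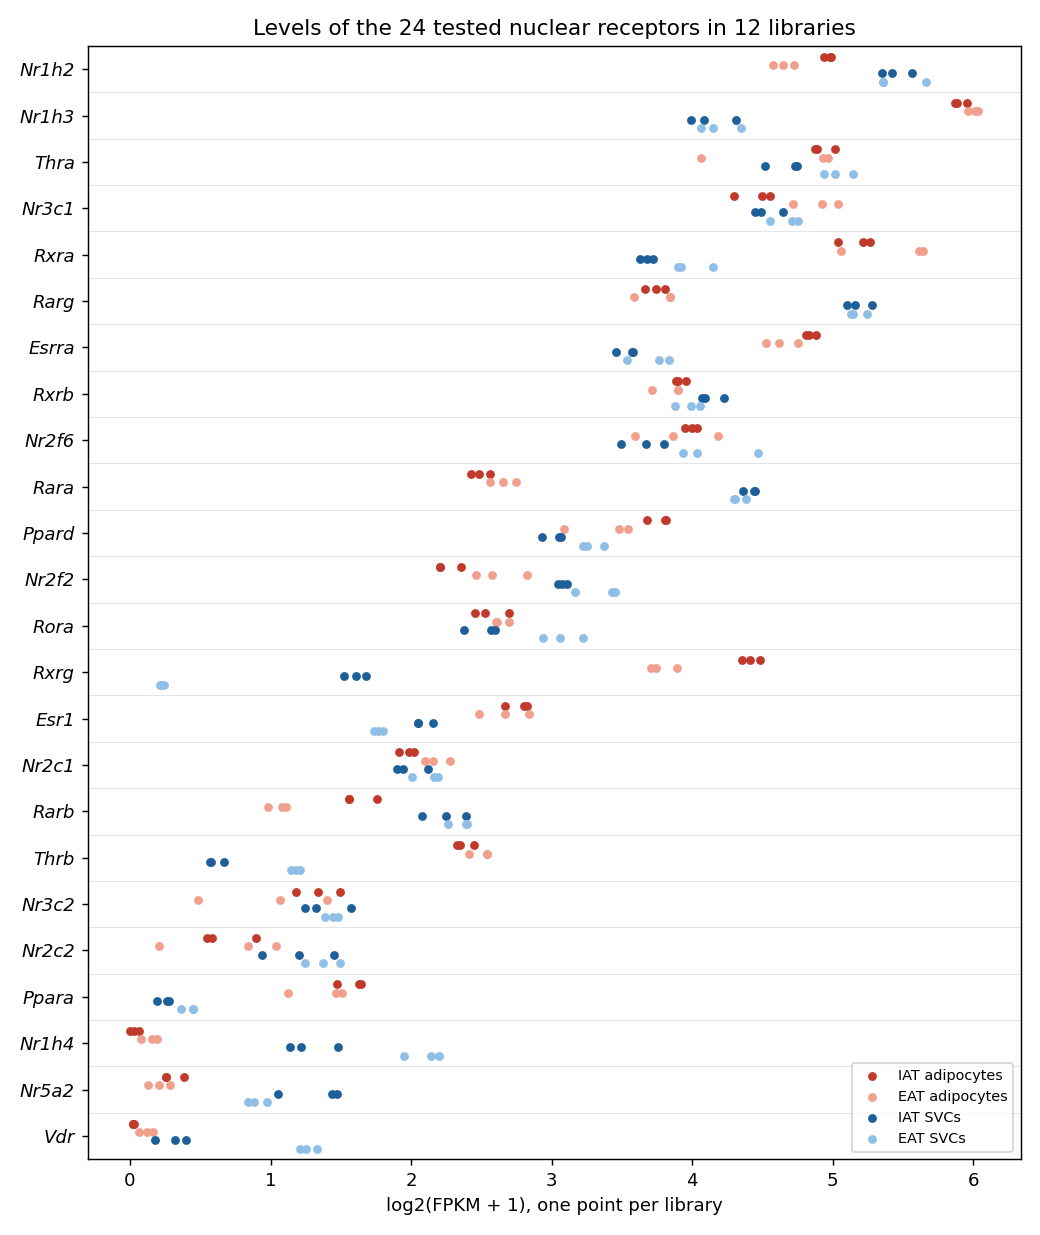
Levels of the 24 receptors that reached 1 FPKM in at least 3 of the 12 libraries, as log2(FPKM + 1) on the x axis, with 1 point per library coloured by group. Nr1h3 and Rxra lie highest in adipocytes, Nr1h2 and Rarg in SVCs, and the 4 groups of Rxrg do not overlap.

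The other 11 receptors stayed under 1 FPKM in every library and were not tested. Nr1i2 and Nr1i3, the xenobiotic receptors PXR and CAR of the liver, were listed at 0 in 10 and 8 libraries. Nr2e3, a photoreceptor cell factor, was at 0 in 11 libraries, Esr2 and Pgr, oestrogen receptor beta and the progesterone receptor, in 5 each, and Esrrb in 2. Among the others, 3 had most of their low signal in 1 fraction or group. Esrrg, an oestrogen-related receptor of oxidative tissues, had 0.322, 0.163 and 0.345 FPKM in IAT adipocytes and 0.187, 0.294 and 0.215 FPKM in EAT adipocytes, against at most 0.0345 FPKM in any SVC library. Hnf4a, a liver and gut epithelial factor, had 0.0663, 0.0304 and 0.07 FPKM in IAT SVCs and 0.32, 0.302 and 0.265 FPKM in EAT SVCs. Rorb, a receptor of retina and brain, had 0.232, 0.178 and 0.239 FPKM in IAT SVCs and 0.0264, 0.00588 and 0.0397 FPKM in EAT SVCs. These values rest on an estimated 25.8 to 49.3 fragments for Hnf4a in EAT SVCs and 34.5 to 61.6 for Rorb in IAT SVCs. Nr6a1, a germ cell factor, reached at most 0.568 FPKM and Nr5a1, the steroidogenic factor SF-1, at most 0.184 FPKM.

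Between fractions, adipocytes had more Rxrg, Rxra, Nr1h3, Thrb, Ppara, Esrra and Esr1, and SVCs had more of all 3 retinoic acid receptors and of Nr1h4, Vdr, Nr1h2, Nr2f2 and Nr5a2, in both depots. A gene was called where the Benjamini-Hochberg adjusted p of limma's test on log2(FPKM + 1), over 13175 features, was under 0.05. In IAT, 8 of the 24 tested receptors were higher in adipocytes and 10 lower, or 75.0% called, beside 83.7% of all features (29.8% higher and 53.9% lower). Libraries of both fractions did not overlap for 20 of the 24, beside 88.3% of all features. In EAT, 7 were higher and 11 lower, again 75.0%, beside 83.8% of all features (31.1% higher and 52.7% lower), and 17 did not overlap, beside 83.1%. Those 24 passed the filter through the groups in which they are expressed, and a share near or under that of all genes says nothing particular to receptors. The median difference of the receptors was -0.03 in IAT, where all features had -0.34, and -0.32 in EAT, where all features had -0.31. Median-of-ratios scaling moves the median of all features to 0.00 in EAT and -0.00 in IAT, and the receptors then split 14 higher to 7 lower in IAT and 11 to 9 in EAT. Of all 13175 features, 5471 were then called higher and 5464 lower in IAT, and 5503 higher and 5473 lower in EAT. In bulk samples, fewer cells of a type and less RNA per cell cannot be told apart.

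**Figure D2:**
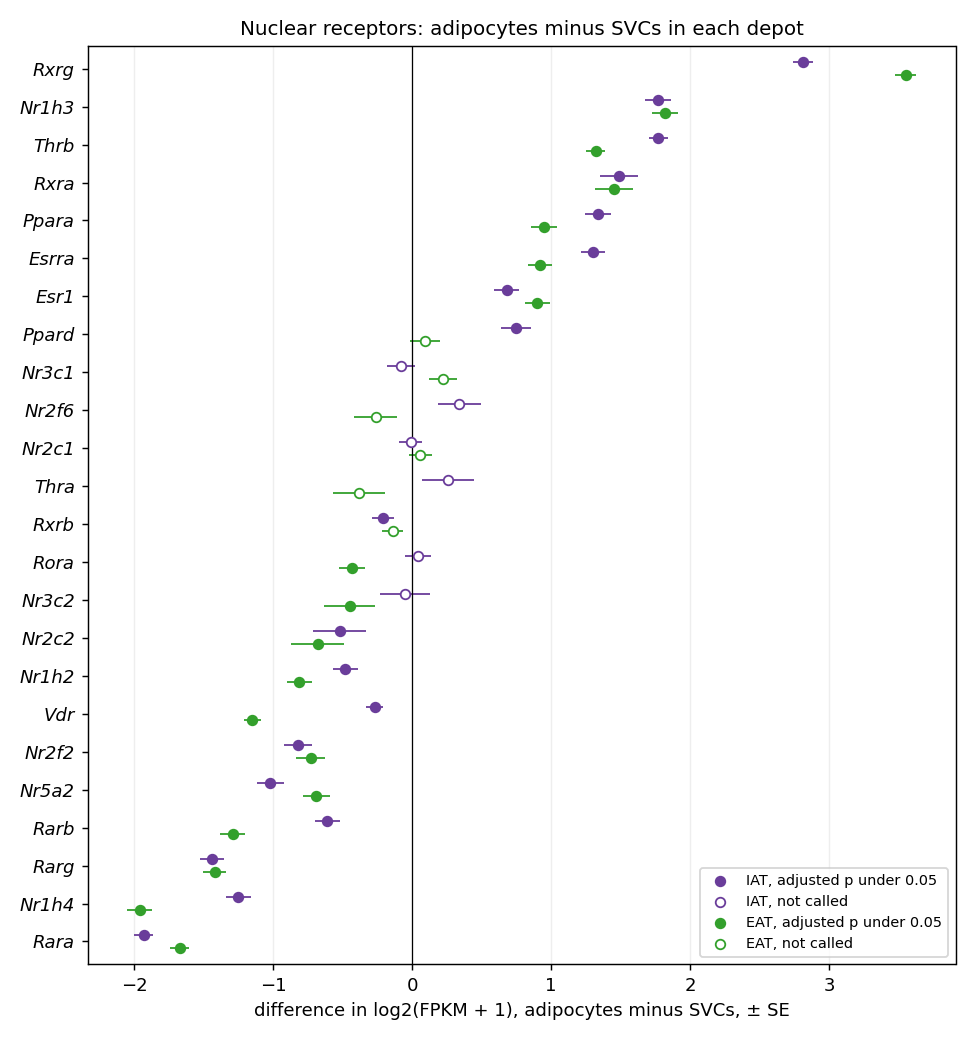
Difference in log2(FPKM + 1) between adipocytes and SVCs for each tested receptor, in IAT and in EAT, with the standard error. Filled points have an adjusted p under 0.05. Rxrg, Nr1h3, Thrb and Rxra lie farthest to the right and Rara, Nr1h4 and Rarg farthest to the left in both depots. The small called difference of Rxrb in IAT turns positive under median-of-ratios scaling.

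Between depots, Rxrg was higher in IAT in both fractions, and every other called receptor was called in 1 fraction only. In adipocytes, Rxrg, Rarb, Ppard and Nr1h2 were higher in IAT and Nr3c1 and Nr2f2 lower. That is 6 of 24 receptors (25.0%), 4 higher and 2 lower, beside 37.6% of all features (10.3% higher and 27.3% lower). The groups of 3 libraries did not overlap for 12 of the 24, beside 48.3% of all features. In SVCs, Rxrg, Nr5a2 and Esr1 were higher in IAT and Vdr, Nr1h4, Thrb, Rora and Nr2f6 lower. These 8 of 24 (33.3%), 3 higher and 5 lower, stand beside 40.2% of all features (14.0% higher and 26.2% lower), and 14 (58.3%) did not overlap, beside 55.1%. The median depot difference was 0.03 for the receptors in adipocytes, against -0.10 for all features, and -0.16 in SVCs, against -0.06. Under median-of-ratios scaling the split was 8 higher and 1 lower in adipocytes and 5 higher and 4 lower in SVCs. Of all 13175 features, that scaling called 2123 higher and 2197 lower in adipocytes, and 2466 higher and 2547 lower in SVCs.

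**Figure D3:**
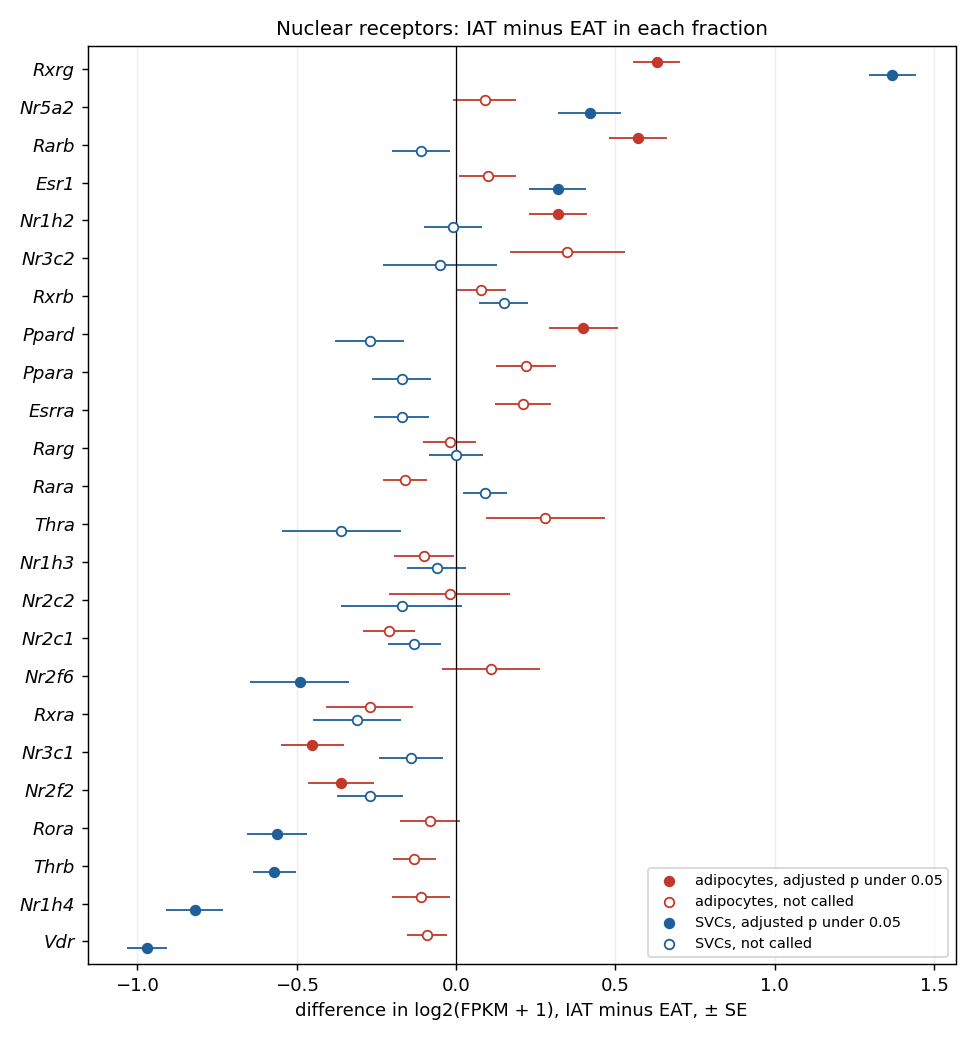
Difference in log2(FPKM + 1) between IAT and EAT for each tested receptor, in adipocytes and in SVCs, with the standard error. Filled points have an adjusted p under 0.05. Rxrg is on the right in both fractions, Rarb and Ppard are on the right in adipocytes, and Vdr, Nr1h4, Thrb and Rora are on the left in SVCs.

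A test of the difference itself, the depot difference in adipocytes minus that in SVCs, called 9 of the 24 receptors (37.5%), beside 32.5% of all features. For 8 of these the signed depot difference was higher in adipocytes (Vdr, Nr1h4, Rarb, Ppard, Rora, Thrb, Ppara and Esrra), beside 14.7% of all features in that direction. For 1 it was lower (Rxrg), beside 17.8%. The median difference between the depot differences was 0.24 for the receptors and -0.04 for all features. All 4 of these comparisons and their difference use the same 12 libraries and are not independent of each other.

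Retinoid X receptors are the shared dimer partners. Rxrg, the subtype known from muscle, brain and fat, had 19.4, 21.3 and 20.2 FPKM in IAT adipocytes and 13.8, 12.4 and 12.1 FPKM in EAT adipocytes. Its levels were 1.87, 2.21 and 2.05 FPKM in IAT SVCs and 0.161, 0.185 and 0.171 FPKM in EAT SVCs. All 4 groups were apart from one another with no overlap. The depot difference was 0.63 ± 0.074 in adipocytes (IAT minus EAT, log2 ± SE, limma adjusted p = 2.94e-05), or 1.59-fold on FPKM means, and 1.37 ± 0.074 in SVCs (adjusted p = 1.28e-08), or 11.9-fold. Adipocytes exceeded SVCs by 2.81 ± 0.074 in IAT (adjusted p = 1.8e-12) and by 3.55 ± 0.074 in EAT (adjusted p = 2.43e-13). The 11.9-fold ratio rests on an estimated 5.5 to 9.5 fragments per EAT SVC library, and the bounds of those values run from 0.0255 to 0.316 FPKM. The depot difference was smaller in adipocytes than in SVCs on the log2(FPKM + 1) scale, at -0.74 ± 0.104 (adjusted p = 1.54e-04). Adipocyte markers also moved with it in SVCs, summing to 256 to 297 FPKM in IAT SVCs and 117 to 136 FPKM in EAT SVCs, as did the skeletal muscle markers given above, and their part in the Rxrg difference was not tested.

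Rxra, the most abundant subtype in adipocytes, had 31.8, 36.1 and 37.4 FPKM in IAT adipocytes and 32.3, 49.0 and 47.9 FPKM in EAT adipocytes. SVC levels of Rxra were 12.2, 11.4 and 11.8 FPKM in IAT, with 14.1, 16.7 and 13.9 FPKM in EAT. The low EAT adipocyte value is that of replicate 1, and without it the other values of that group lie above all of IAT. The depot difference in adipocytes was -0.27 with all libraries and was not called (adjusted p = 0.147), and -0.46 without that replicate (adjusted p = 0.00101). The fraction difference was 1.49 ± 0.137 in IAT (adjusted p = 3.17e-07) and 1.45 ± 0.137 in EAT (adjusted p = 4.29e-07), a 2.98-fold and a 2.88-fold ratio. Rxrb ranged from 12.1 to 17.7 FPKM over all 12 libraries. It averaged 14.1 ± 0.39 FPKM in IAT adipocytes and 16.5 ± 1.04 FPKM in IAT SVCs, a called difference of -0.21 ± 0.077 (adjusted p = 0.0214) that reverses to 0.19 under median-of-ratios scaling and loses its call without replicate 1 or 3 of IAT adipocytes or replicate 2 of IAT SVCs (adjusted p = 0.0614, 0.0573 and 0.0926). On the TPM scale it is -0.10 and not called (adjusted p = 0.421).

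As shares of their summed FPKM, the RXR subtypes differed in balance between the 4 groups. Rxrg made up 29.3 ± 0.854% in IAT adipocytes, 18.8 ± 4.25% in EAT adipocytes, 6.73 ± 0.414% in IAT SVCs and 0.578 ± 0.0104% in EAT SVCs. Rxrb made up 20.3 ± 0.865% in IAT adipocytes and 19.4 ± 1.27% in EAT adipocytes, against 54.4 ± 1.97% in IAT SVCs and 49.4 ± 1.75% in EAT SVCs. The sum itself was close between depots, at 69.5 ± 3.92 FPKM in IAT adipocytes and 69.1 ± 9.5 FPKM in EAT adipocytes, and 30.3 ± 0.798 FPKM in IAT SVCs and 29.9 ± 2.42 FPKM in EAT SVCs.

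The Rxrg locus (chr1:167598362-167639623, mm10) has a pair of promoter windows in RefSeq (GRCm38.p6), which reach from 250 bases before the start to 50 bases after it. They are shown because Rxrg had the largest difference between fractions of the 24 tested receptors in both depots. Capitals mark the hexamer AGGTCA, the core letters that many of these receptors bind, found 88 bases before the start in the second window and not in the first.
Rxrg upstream start, chr1:167598112-167598411, plus strand: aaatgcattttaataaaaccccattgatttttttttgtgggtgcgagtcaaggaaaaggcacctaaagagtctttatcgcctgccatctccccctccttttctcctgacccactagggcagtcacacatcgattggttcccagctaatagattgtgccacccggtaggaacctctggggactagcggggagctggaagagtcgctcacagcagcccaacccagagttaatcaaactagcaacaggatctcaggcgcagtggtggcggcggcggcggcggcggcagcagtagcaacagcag
Rxrg downstream start, chr1:167618015-167618314, plus strand: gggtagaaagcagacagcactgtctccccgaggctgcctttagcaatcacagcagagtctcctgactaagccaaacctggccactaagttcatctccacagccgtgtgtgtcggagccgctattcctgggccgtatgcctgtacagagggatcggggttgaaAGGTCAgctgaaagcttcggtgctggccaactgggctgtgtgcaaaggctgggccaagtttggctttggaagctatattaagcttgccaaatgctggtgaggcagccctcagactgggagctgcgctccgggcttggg

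Retinoic acid receptors (RARs) bind the vitamin A product retinoic acid. All 3 were lower in adipocytes than in SVCs, in both depots and under each scaling run. Rara had 4.6, 4.38 and 4.89 FPKM in IAT adipocytes and 4.92, 5.29 and 5.71 FPKM in EAT adipocytes, against 20.7, 20.8 and 19.6 FPKM in IAT SVCs and 18.6, 19.8 and 18.7 FPKM in EAT SVCs. The fractions were far apart, by -1.93 ± 0.069 in IAT (limma adjusted p = 2.93e-11) and -1.67 ± 0.069 in EAT (adjusted p = 1.17e-10). Rarg averaged 12.3 ± 0.657 FPKM in IAT adipocytes and 35.3 ± 2.3 FPKM in IAT SVCs, and 12.6 ± 1.36 FPKM in EAT adipocytes and 35.1 ± 1.54 FPKM in EAT SVCs, a difference of -1.44 ± 0.084 in IAT (adjusted p = 3.3e-09) and -1.42 ± 0.084 in EAT (adjusted p = 3.94e-09). Neither Rara nor Rarg was called between depots with all libraries and no rescaling. Rara was lower in every IAT adipocyte library than in every EAT adipocyte library. That depot difference was called without replicate 1 of EAT adipocytes (-0.21, adjusted p = 0.02). In SVCs the Rara depot difference was called under median-of-ratios scaling (0.19, adjusted p = 0.0434).

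Rarb, the subtype whose own gene is a textbook target of retinoic acid, was the exception between depots. It had 2.39, 1.95 and 1.94 FPKM in IAT adipocytes and 1.12, 0.972 and 1.16 FPKM in EAT adipocytes. Rarb had 4.24, 3.23 and 3.74 FPKM in SVCs of IAT and 4.26, 3.79 and 4.23 FPKM in EAT. Every IAT adipocyte library was above every EAT adipocyte library, while the SVCs of both depots overlapped. The depot difference was 0.57 ± 0.091 in adipocytes (adjusted p = 4.14e-04), a 1.93-fold ratio, and it exceeded that in SVCs by 0.68 ± 0.129 (adjusted p = 0.00151). Rarb was lower in adipocytes than in SVCs by -0.61 ± 0.091 in IAT (adjusted p = 3.4e-05) and -1.29 ± 0.091 in EAT (adjusted p = 2.21e-08). Its share of summed RAR FPKM was 11 ± 0.929% in IAT adipocytes and 5.76 ± 0.809% in EAT adipocytes, and 6.28 ± 0.583% in IAT SVCs and 7.04 ± 0.673% in EAT SVCs. The adipocyte fractions also held fibroblast and progenitor markers at 323 to 384 FPKM in IAT and 260 to 289 FPKM in EAT, under a range of 4890 to 6180 FPKM in the SVC libraries, and their part in the Rarb difference was not tested.

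The 1 Rarb window in RefSeq lies inside the locus of the files (chr14:16430840-17082331, mm10). It is shown because Rarb differed between depots in adipocytes and because it holds the known repeat through which retinoic acid receptors act on this gene. Capitals mark that repeat, searched as GTTCANNNNNAGTTCA on both strands, which begins 52 bases before the start.
Rarb, chr14:16575427-16575726, minus strand: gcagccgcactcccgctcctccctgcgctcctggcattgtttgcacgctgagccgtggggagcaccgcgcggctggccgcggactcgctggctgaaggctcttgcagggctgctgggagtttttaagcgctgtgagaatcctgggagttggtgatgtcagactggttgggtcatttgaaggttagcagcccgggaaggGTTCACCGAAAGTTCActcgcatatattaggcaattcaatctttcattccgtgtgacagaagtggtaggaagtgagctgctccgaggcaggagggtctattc
The repeat occurred in 11 of 32851 promoter windows (0.0335%), and in 1 of the 50 windows of the receptors.

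Genes of retinoid supply and turnover, a list of 16 of which 11 were tested, were lower in IAT where they were called in adipocytes. None of the 11 was higher there and 5 were lower (3 under median-of-ratios scaling), beside 10.3% and 27.3% of all features, with a median of -0.16 against -0.10. In SVCs 2 were higher and 6 lower, beside 14.0% and 26.2%, with a median of -0.48 against -0.06. Aldh1a2, an enzyme that makes retinoic acid, averaged 0.224 ± 0.0513 FPKM in IAT adipocytes and 2.19 ± 0.11 FPKM in EAT adipocytes (difference -1.38 ± 0.071, adjusted p = 2.03e-08). In SVCs it averaged 4.87 ± 0.416 FPKM in IAT and 40.8 ± 0.239 FPKM in EAT (-2.83 ± 0.071, adjusted p = 1.21e-11). Aldh1a1, which has the same activity, averaged 54.6 ± 1.5 FPKM in IAT adipocytes and 120 ± 2.02 FPKM in EAT adipocytes (-1.13 ± 0.06, adjusted p = 2.79e-08). Rbp4, the carrier of retinol in blood, was at 617 ± 31.9 FPKM in IAT adipocytes and 9.39 ± 1.63 FPKM in IAT SVCs, and at 807 ± 155 FPKM in EAT adipocytes and 6.37 ± 0.193 FPKM in EAT SVCs. Mesothelial markers, given above, were also lower in IAT in both fractions, and their part in these differences was not tested.

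**Figure D4:**
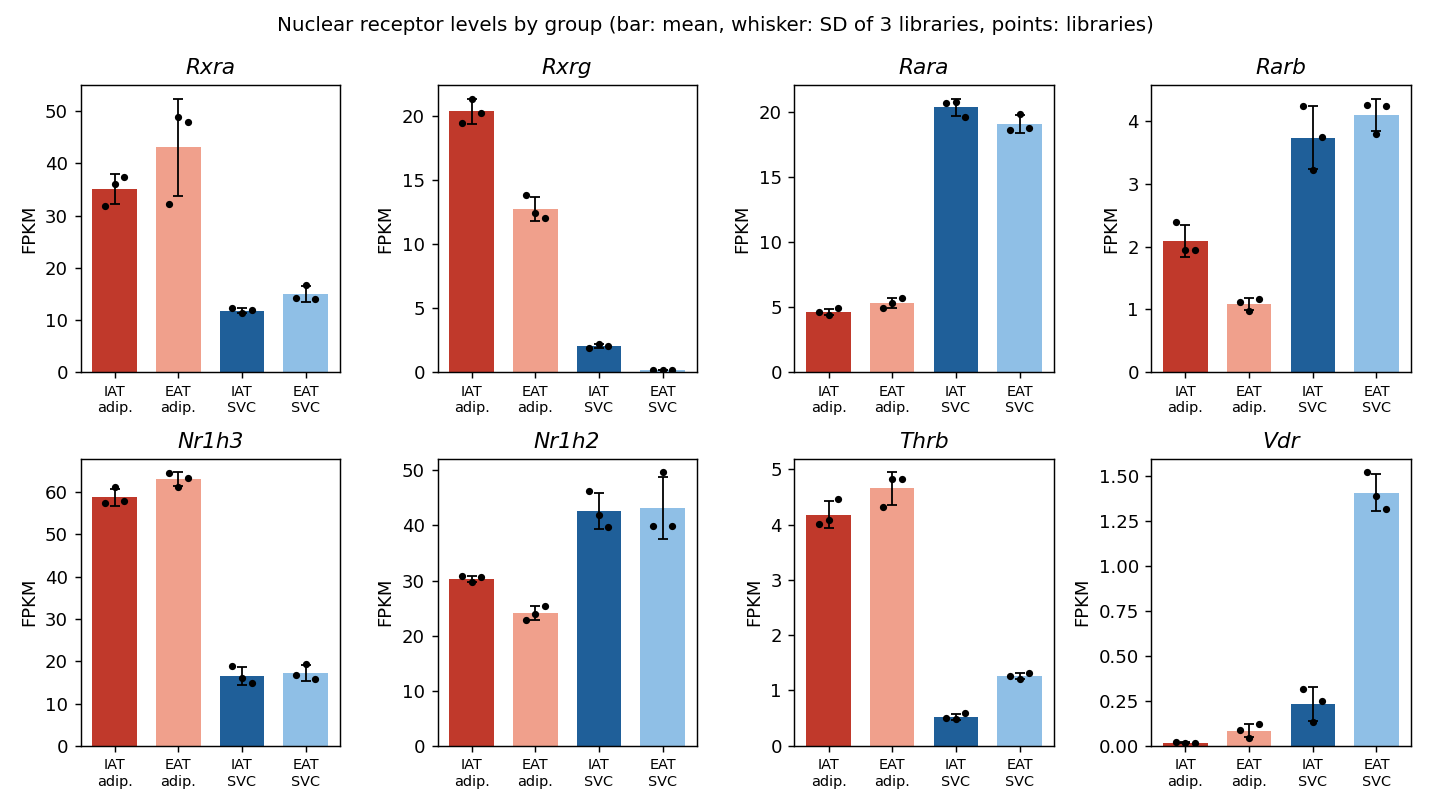
FPKM of 8 receptors in the 4 groups. Bars are means, whiskers the SD of 3 libraries and points the libraries. Rxra, Rxrg, Nr1h3 and Thrb are higher in both adipocyte groups, Rara, Rarb and Nr1h2 in both SVC groups, and Vdr is above 1 FPKM in EAT SVCs alone.

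Fatty acid receptors of the list were Ppara, which drives fatty acid oxidation, and Ppard, a broadly expressed relative. Ppara had 1.78, 2.13 and 2.09 FPKM in IAT adipocytes and 1.18, 1.85 and 1.76 FPKM in EAT adipocytes. Its SVC levels were 0.212, 0.145 and 0.199 FPKM in IAT and 0.365, 0.364 and 0.285 FPKM in EAT. All adipocyte libraries lay above all SVC libraries, by 1.34 ± 0.093 in IAT (limma adjusted p = 1.9e-08) and 0.95 ± 0.093 in EAT (adjusted p = 6.24e-07). The depots overlapped in adipocytes, and that difference of 0.22 was not called (adjusted p = 0.0869), though it was under median-of-ratios scaling (0.32, adjusted p = 0.0128) and without replicate 2 of EAT adipocytes (adjusted p = 0.0399). In SVCs the depots did not overlap, with Ppara 1.83-fold lower in IAT on FPKM means. That difference, -0.17, was not called (adjusted p = 0.159), but it was with a pseudocount of 0.1 (-0.62, adjusted p = 0.0164), in a fit on the SVC libraries alone (adjusted p = 0.0303) and without replicate 1 of EAT adipocytes (adjusted p = 0.0389). The difference between both depot differences, 0.39 ± 0.131 (adjusted p = 0.0383), lost its call without replicate 2 or 3 of IAT adipocytes, replicate 1 or 2 of EAT SVCs or any 1 of the IAT SVC libraries (adjusted p = 0.0533 to 0.0857). That call was also lost on the TPM scale and with no filter (adjusted p = 0.085 and 0.0514).

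Ppard had 11.8, 13.0 and 13.0 FPKM in IAT adipocytes and 7.48, 10.6 and 10.1 FPKM in EAT adipocytes. Ppard levels in SVCs were 7.28, 7.37 and 6.62 FPKM in IAT and 8.54, 9.35 and 8.32 FPKM in EAT. IAT was thus above EAT with no overlap in adipocytes and below it with no overlap in SVCs. The difference in adipocytes was 0.40 ± 0.108 (adjusted p = 0.012). It lost its call in a fit on the adipocyte libraries alone (adjusted p = 0.0601) and on the TPM scale (adjusted p = 0.078). In SVCs the difference was -0.27 and not called (adjusted p = 0.0669). It was called in a fit on the SVC libraries alone (adjusted p = 0.0184) and without replicate 1 or 2 of EAT adipocytes (adjusted p = 0.00505 and 0.0479). The depot differences were 0.66 ± 0.152 apart (adjusted p = 0.00525). Adipocytes exceeded SVCs by 0.75 ± 0.108 in IAT (adjusted p = 2.54e-05). In EAT the difference was not called with all libraries (adjusted p = 0.469), and it was 0.23 without replicate 1 of EAT adipocytes (adjusted p = 0.0125). The feature 1810013A23Rik overlaps the Ppard locus (chr17:28232754-28301469, mm10), and the sources used here do not say whether strand was used in counting.

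Of 17 listed PPAR targets, 15 were tested. In adipocytes 8 were higher in IAT and 2 lower, beside 10.3% and 27.3% of all features, with a median of 0.33 against -0.10. In SVCs 1 was higher and 4 lower, beside 14.0% and 26.2%, with a median of -0.13 against -0.06, and 3 were higher and 4 lower under median-of-ratios scaling. Pdk4, which shuts off glucose oxidation, averaged 70.2 ± 5.42 FPKM in IAT adipocytes and 20.1 ± 4.94 FPKM in EAT adipocytes (1.78 ± 0.134, adjusted p = 6.02e-07). Cpt1a, the carnitine acyltransferase of fatty acid entry into mitochondria, went the other way, at 7.9 ± 0.509 FPKM in IAT adipocytes and 14.3 ± 2.5 FPKM in EAT adipocytes (-0.77 ± 0.114, adjusted p = 2.14e-04). Between fractions, 12 targets were higher in adipocytes and 2 lower in IAT, beside 29.8% and 53.9% of all features, with a median of 2.06 against -0.34. In EAT 10 were higher and 4 lower, beside 31.1% and 52.7%, with a median of 1.37 against -0.31. Angptl4, an inhibitor of lipoprotein lipase, averaged 843 ± 32.6 FPKM in IAT adipocytes and 108 ± 1.79 FPKM in IAT SVCs. Pparg itself, kept in a separate list of 12 further nuclear receptors, averaged 208 ± 26.6 FPKM in IAT adipocytes and 46.7 ± 1.35 FPKM in IAT SVCs, and 227 ± 8.69 FPKM in EAT adipocytes and 35.4 ± 1.62 FPKM in EAT SVCs.

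Oxysterol receptors switched in rank between fractions. Nr1h3 had 57.3, 61.1 and 58.0 FPKM in IAT adipocytes and 64.5, 61.3 and 63.4 FPKM in EAT adipocytes, against 18.9, 15.9 and 14.9 FPKM in IAT SVCs and 16.7, 19.4 and 15.7 FPKM in EAT SVCs. The fractions did not overlap, and the differences were 1.77 ± 0.093 in IAT (limma adjusted p = 1.05e-09) and 1.82 ± 0.093 in EAT (adjusted p = 8.53e-10). Nr1h2 had 30.8, 29.7 and 30.5 FPKM in IAT adipocytes and 22.8, 24 and 25.4 FPKM in EAT adipocytes, against 46.3, 41.9 and 39.8 FPKM in IAT SVCs and 40.0, 49.6 and 39.9 FPKM in EAT SVCs. It was lower in adipocytes by -0.48 ± 0.091 in IAT (adjusted p = 2.96e-04) and -0.81 ± 0.091 in EAT (adjusted p = 2.3e-06), and the IAT difference is -0.06 under median-of-ratios scaling (adjusted p = 0.561). Nr1h3 made up 66.0 ± 1.2% of their summed FPKM in IAT adipocytes and 72.4 ± 1.33% in EAT adipocytes, against 27.9 ± 0.924% in IAT SVCs and 28.6 ± 0.816% in EAT SVCs. Nr1h2 was higher in IAT than in EAT adipocytes by 0.32 ± 0.091 (adjusted p = 0.0146), with no overlap, and missed the threshold when rescaled to TPM (adjusted p = 0.0597).

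Of 11 genes of oxysterol synthesis and LXR targets, 10 were tested, and in adipocytes 1 was higher in IAT and 2 lower, beside 10.3% and 27.3% of all features. Under median-of-ratios scaling the split was 4 higher and 2 lower. The 2 that were lower were Cyp27a1, an oxysterol-making enzyme, at 14.1 ± 1.27 FPKM in IAT adipocytes and 38.2 ± 1.91 FPKM in EAT adipocytes (-1.38 ± 0.081, adjusted p = 6.46e-08), and the cholesterol exporter Abca1, with 15.7 ± 1.85 FPKM in IAT adipocytes and 31.1 ± 4.85 FPKM in EAT adipocytes (-0.94 ± 0.118, adjusted p = 5.76e-05). Summed macrophage markers were also lower in IAT adipocytes, and their part in these differences was not tested. Srebf1, the LXR target that drives lipid synthesis, averaged 119 ± 19.1 FPKM in IAT adipocytes and 19.4 ± 0.9 FPKM in IAT SVCs, and 98.8 ± 9.46 FPKM in EAT adipocytes and 17.8 ± 2.16 FPKM in EAT SVCs. Relative to SVCs, 3 of the 10 were higher and 6 lower in adipocytes of IAT, beside 29.8% and 53.9% of all features, and 5 were higher and 5 lower in adipocytes of EAT, beside 31.1% and 52.7%.

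Nr1h4, the bile acid receptor FXR of liver and gut, was detected in SVCs. It had 1.78, 1.2 and 1.32 FPKM in IAT SVCs and 2.86, 3.42 and 3.6 FPKM in EAT SVCs. Adipocyte values were 0.0445, 0 and 0.0197 FPKM in IAT and 0.0552, 0.114 and 0.141 FPKM in EAT, an estimated 4.0 fragments or fewer per library. The SVC groups did not overlap, and the depot difference was -0.82 ± 0.09 (limma adjusted p = 1.1e-05), 2.29-fold lower in IAT on FPKM means. Adipocytes were lower than SVCs by -1.25 ± 0.09 in IAT (adjusted p = 2.86e-08) and -1.96 ± 0.09 in EAT (adjusted p = 3.07e-10). The depot differences of the fractions were 0.71 ± 0.127 apart (adjusted p = 9.91e-04), and 0.42 with a pseudocount of 0.1 (adjusted p = 0.324), where adipocytes near 0 weigh more and their own depot difference was called (-0.74, adjusted p = 0.0153).

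Vdr, the vitamin D receptor, was highest in EAT SVCs. It had 0.315, 0.132 and 0.249 FPKM in IAT SVCs and 1.52, 1.38 and 1.32 FPKM in EAT SVCs, with no overlap. In adipocytes it had 0.0192, 0.0154 and 0.0169 FPKM in IAT, about 2.0 estimated fragments a library, and 0.0869, 0.0456 and 0.121 FPKM in EAT, 5.0 to 11.9 fragments. The depot difference in SVCs was -0.97 ± 0.062 (limma adjusted p = 7.13e-08), 6.05-fold lower in IAT on FPKM means, and the fractions' depot differences were 0.87 ± 0.088 apart (adjusted p = 8.82e-06). Adipocytes of IAT were also below those of EAT without overlap, 4.93-fold on FPKM means. That difference was -0.09 with a pseudocount of 1, not called (adjusted p = 0.269), and -0.64 with a pseudocount of 0.1, where it was called (adjusted p = 0.0384). With the smaller pseudocount the depot differences were 1.58 apart (adjusted p = 0.00254). Adipocytes were lower than SVCs by -1.15 ± 0.062 in EAT (adjusted p = 1.53e-09) and -0.27 ± 0.062 in IAT (adjusted p = 0.00119). On FPKM means Vdr was 13.5-fold lower in IAT adipocytes than in IAT SVCs, with no overlap, a call kept under all 21 alternatives run (largest adjusted p = 0.0105). Of 6 listed genes of vitamin D metabolism 2 were tested. Lrp2, the receptor that takes up vitamin D with its carrier, averaged 0.00288 ± 0.00323 FPKM in IAT SVCs and 1.62 ± 0.0815 FPKM in EAT SVCs (-1.39 ± 0.045, adjusted p = 1.31e-10). Nr1h4, Vdr and Lrp2 thus differed between SVCs in the same direction as the mesothelial and macrophage markers, and the part of those cells in the differences was not tested.

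The Vdr promoter window of RefSeq (GRCm38.p6) is shown because Vdr had the largest negative difference between IAT and EAT SVCs among the 24 tested receptors. Capitals mark the 3 copies of GGGCGG, the GC box bound by SP1 and its relatives, the first of them 63 bases before the start. No AGGTCA lies in this window.
Vdr, chr15:97908247-97908546, minus strand: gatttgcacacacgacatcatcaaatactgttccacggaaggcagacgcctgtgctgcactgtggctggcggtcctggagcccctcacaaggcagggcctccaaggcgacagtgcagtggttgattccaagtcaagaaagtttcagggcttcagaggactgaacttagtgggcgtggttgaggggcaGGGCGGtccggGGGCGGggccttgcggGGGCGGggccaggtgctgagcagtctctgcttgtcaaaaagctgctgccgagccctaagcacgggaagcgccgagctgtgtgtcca
RefSeq windows were found for 32 of the 35 receptors, all but Nr3c1, Thra and Nr5a1, with 50 windows in all. Searched on both strands, AGGTCA lay in 8 of the 50 (16.0%), beside 16.3% of all 32851 windows. GGGCGG lay in 20 (40.0%), beside 35.7%, and TATAAA in 4 (8.0%), beside 13.6%. No receptor window held AGGTCANAGGTCA or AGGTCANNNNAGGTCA, found in 0.0396% and 0.0152% of all windows. Such matches are a description of the letters and not of binding.

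Thyroid hormone receptors Thra and Thrb set the response to thyroid hormone. Thrb had 4.01, 4.08 and 4.46 FPKM in IAT adipocytes and 4.31, 4.82 and 4.82 FPKM in EAT adipocytes, against 0.494, 0.48 and 0.587 FPKM in IAT SVCs and 1.26, 1.21 and 1.32 FPKM in EAT SVCs. Adipocytes lay above SVCs without overlap, by 1.77 ± 0.067 in IAT (limma adjusted p = 4.39e-11) and 1.32 ± 0.067 in EAT (adjusted p = 7.66e-10). SVCs of IAT were lower than those of EAT by -0.57 ± 0.067 (adjusted p = 1.84e-05), 2.43-fold on FPKM means, whereas the depot difference in adipocytes was not called, and the depot differences were 0.45 ± 0.094 apart (adjusted p = 0.00298). Thra had 28.6, 28.4 and 31.4 FPKM in IAT adipocytes and 15.7, 30.2 and 29.5 FPKM in EAT adipocytes, against 25.6, 21.9 and 25.9 FPKM in IAT SVCs and 31.3, 34.3 and 29.6 FPKM in EAT SVCs. The value of 15.7 FPKM is that of the replicate that stood apart, and no Thra difference was called with all libraries. Without that library the SVC depot difference of -0.36 was called (adjusted p = 0.00147), as was the fraction difference in IAT of 0.26 (adjusted p = 0.00559). That library is in neither comparison, but the fit takes the spread of a gene from all 12 libraries. In fits on the compared groups alone, both differences were called too (adjusted p = 0.00708 and 0.01).

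Of 9 listed genes of thyroid hormone supply 6 were tested, and 4 of them were lower and 1 higher in IAT in each fraction, with medians of -0.32 in adipocytes and -0.46 in SVCs (all features -0.10 and -0.06). Of all features, 27.3% were lower and 10.3% higher in adipocytes, and 26.2% lower and 14.0% higher in SVCs. Crym, a cytosolic binder of the hormone, averaged 0.428 ± 0.221 FPKM in IAT SVCs and 4.4 ± 0.699 FPKM in EAT SVCs (-1.92 ± 0.113, adjusted p = 2.97e-08).

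Among steroid receptors, Nr3c1, the glucocorticoid receptor, had 18.7, 21.5 and 22.5 FPKM in IAT adipocytes and 25.4, 31.9 and 29.3 FPKM in EAT adipocytes. Nr3c1 levels in SVCs were 21.5, 20.8 and 24 FPKM in IAT and 26.0, 22.5 and 25.1 FPKM in EAT. Adipocytes did not overlap between depots while SVCs did. The depot difference in adipocytes was -0.45 ± 0.10 (limma adjusted p = 0.00408), 1.38-fold lower in IAT on FPKM means, and was called under each alternative run. Esr1, the oestrogen receptor alpha, had 5.36, 6.1 and 5.99 FPKM in IAT adipocytes and 4.6, 6.17 and 5.36 FPKM in EAT adipocytes, against 3.13, 3.14 and 3.46 FPKM in IAT SVCs and 2.48, 2.34 and 2.4 FPKM in EAT SVCs. Adipocytes exceeded SVCs by 0.68 ± 0.089 in IAT (adjusted p = 1.04e-05) and by 0.90 ± 0.089 in EAT (adjusted p = 7.11e-07). IAT SVCs exceeded EAT SVCs by 0.32 ± 0.089 (adjusted p = 0.0128), a call lost without replicate 3 of IAT SVCs (adjusted p = 0.0513) and on the TPM scale (adjusted p = 0.155). Nr3c2, the mineralocorticoid receptor, ranged from 0.397 to 1.98 FPKM, with its lowest value in replicate 1 of EAT adipocytes. Its called difference between EAT fractions, -0.45 (adjusted p = 0.0326), was -0.20 without that replicate (adjusted p = 0.138) and was also lost without any of the 3 EAT SVC libraries (adjusted p = 0.0571 to 0.0766). Median-of-ratios scaling, the TPM scale, no filter and a fit on the EAT libraries alone lost that call too (adjusted p = 0.24, 0.0845, 0.0602 and 0.0714).

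Of 14 genes of steroid hormone metabolism 9 were tested, of which 1 was higher and 3 were lower in adipocytes of IAT, close to the 10.3% and 27.3% of all features. Their median was 0.02, against -0.10 for all features. Hsd11b1, which makes active glucocorticoid within the cell, was the higher one, at 139 ± 9.8 FPKM in IAT adipocytes and 107 ± 6.09 FPKM in EAT adipocytes (0.38 ± 0.084, adjusted p = 0.00402). Sult1e1, which inactivates oestrogens, averaged 59.9 ± 12.8 FPKM in IAT SVCs and 238 ± 35.5 FPKM in EAT SVCs (-1.98 ± 0.204, adjusted p = 6.13e-06). In SVCs 3 were higher in IAT and 5 lower, beside 14.0% and 26.2% of all features, with a median of -0.22 against -0.06, and the split was 3 and 2 under median-of-ratios scaling.

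Oestrogen-related receptors, orphan receptors of mitochondrial gene control, were represented by Esrra alone at tested levels, with 98.9% to 99.8% of the family's summed FPKM in group means. Esrra had 28.5, 27.4 and 27.0 FPKM in IAT adipocytes and 23.5, 22.0 and 25.9 FPKM in EAT adipocytes. SVC levels of Esrra were 10.9, 10.9 and 10.01 FPKM in IAT and 10.6, 13.3 and 12.6 FPKM in EAT. Fractions did not overlap, with differences of 1.30 ± 0.087 in IAT (limma adjusted p = 1.31e-08) and 0.92 ± 0.087 in EAT (adjusted p = 4.48e-07). Neither depot difference was called with all libraries and no rescaling, although adipocytes of IAT lay above those of EAT. The adipocyte difference was called under median-of-ratios scaling (0.35, adjusted p = 0.0111). Omission of replicate 3 of EAT adipocytes or replicate 1 of EAT SVCs also gave that call (adjusted p = 0.0493 and 0.0494). The SVC difference was called on the TPM scale (-0.28, adjusted p = 0.0358) and without replicate 1 of EAT SVCs (adjusted p = 0.0335). The 0.38 ± 0.123 between depot differences (adjusted p = 0.0313) was lost with replicate number as a block (adjusted p = 0.0502) and without replicate 2 of EAT adipocytes, any 1 of the IAT adipocyte libraries, replicate 2 or 3 of EAT SVCs or replicate 3 of IAT SVCs (adjusted p = 0.0534 to 0.0756). The Esrra locus (chr19:6910977-6921808, mm10) is overlapped by Trmt112. Of 16 coregulators, which carry the receptors' effect to the chromatin, 15 were tested, and 2 were higher and 2 lower in IAT adipocytes, beside 10.3% and 27.3% of all features, with a median of -0.10, that of all features. Both higher ones are partners of Esrra and the PPARs. Ppargc1a averaged 1.7 ± 0.141 FPKM in IAT adipocytes and 0.933 ± 0.175 FPKM in EAT adipocytes (0.48 ± 0.069, adjusted p = 1.63e-04), and Ppargc1b averaged 1.79 ± 0.0604 FPKM in IAT adipocytes and 1.07 ± 0.332 FPKM in EAT adipocytes (0.44 ± 0.111, adjusted p = 0.00803). The lower ones were Med1, a Mediator subunit that binds many receptors, with 4.84 ± 0.146 FPKM in IAT adipocytes and 6.44 ± 0.443 FPKM in EAT adipocytes (-0.35 ± 0.074, adjusted p = 0.0031), and the coactivator Ncoa1, with 5.94 ± 0.629 FPKM in IAT adipocytes and 8.09 ± 1.5 FPKM in EAT adipocytes (-0.38 ± 0.116, adjusted p = 0.0217). Under median-of-ratios scaling 1 of the 15 was lower.

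Among the NR2 orphan receptors, Nr2f2 (COUP-TFII, a factor of veins and mesenchyme) had 4.11, 3.62 and 3.62 FPKM in IAT adipocytes and 6.07, 4.98 and 4.5 FPKM in EAT adipocytes. It had 7.43, 7.27 and 7.63 FPKM in IAT SVCs and 9.77, 7.96 and 9.92 FPKM in EAT SVCs. All adipocyte libraries lay below all SVC libraries, and IAT lay below EAT within each fraction. The differences between fractions were -0.82 ± 0.103 in IAT (limma adjusted p = 6.99e-06) and -0.73 ± 0.103 in EAT (adjusted p = 2.23e-05). The depot difference in adipocytes of -0.36 ± 0.103 (adjusted p = 0.015) lost its call under median-of-ratios scaling (-0.25, adjusted p = 0.103) and without replicate 2 or 3 of IAT adipocytes (adjusted p = 0.0523 and 0.0531). A fit on the adipocyte libraries alone and removal of the length trend lost it too (adjusted p = 0.0517 and 0.0557). The depot difference in SVCs, -0.27, missed the threshold (adjusted p = 0.0545). It was called on the TPM scale, in a fit on the SVC libraries alone and with replicate number as a block (adjusted p = 0.0127, 0.0346 and 0.0412). Omission of replicate 1 or 3 of EAT adipocytes or replicate 2 of EAT SVCs gave a call too (adjusted p = 0.0158, 0.0457 and 0.0175). The depot difference in adipocytes minus that in SVCs was -0.09 and not called (adjusted p = 0.664). Nr2f6 ranged from 10.2 to 21.1 FPKM and was lower in IAT SVCs, at 11.6 ± 1.34 FPKM, than in EAT SVCs, at 16.9 ± 3.65 FPKM. That difference, -0.49 ± 0.155 (adjusted p = 0.023), was -0.33 without replicate 2 of EAT SVCs (adjusted p = 0.103), and was also lost without replicate 2 or 3 of IAT SVCs (adjusted p = 0.0555 and 0.089). Under median-of-ratios scaling it was -0.39 and not called (adjusted p = 0.0836).

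The testicular receptors Nr2c1 and Nr2c2, broadly expressed repressors, were low. Nr2c1 ranged from 2.74 to 3.84 FPKM, with no called difference except under alternatives. Under median-of-ratios scaling adipocytes exceeded SVCs in both depots, by 0.35 in EAT (limma adjusted p = 7.53e-04, and 0.00207 in IAT). Without replicate 1 of EAT adipocytes, the depot difference in adipocytes was called too (-0.24, adjusted p = 0.0348). Nr2c2 averaged 0.605 ± 0.223 FPKM in IAT adipocytes and 1.32 ± 0.404 FPKM in IAT SVCs, and 0.666 ± 0.462 FPKM in EAT adipocytes and 1.59 ± 0.222 FPKM in EAT SVCs. It was lower in adipocytes in both depots, by -0.52 ± 0.189 in IAT (limma adjusted p = 0.0206) and -0.68 ± 0.189 in EAT (adjusted p = 0.00496). The IAT call was lost without replicate 1 or 2 of IAT adipocytes or replicate 3 of IAT SVCs (adjusted p = 0.0698, 0.0628 and 0.0919). A pseudocount of 0.1, median-of-ratios scaling and the TPM scale lost it too (adjusted p = 0.0539, 0.126 and 0.0721). Mrps25 overlaps the Nr2c2 locus, B130024G19Rik that of Nr2f2 and 9530091C08Rik that of Rora.

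Nr5a2, the liver and ovary factor LRH-1, was the 1 tested receptor of the NR5 and NR6 families. It had 0.302, 0.195 and 0.194 FPKM in IAT adipocytes and 0.0955, 0.154 and 0.22 FPKM in EAT adipocytes, against 1.71, 1.08 and 1.77 FPKM in IAT SVCs and 0.967, 0.839 and 0.788 FPKM in EAT SVCs. Every IAT SVC library was above every EAT SVC library, by 0.42 ± 0.098 (limma adjusted p = 0.00413), a 1.76-fold ratio on 58.6 to 170.2 estimated fragments. It was lower in adipocytes by -1.02 ± 0.098 in IAT (adjusted p = 5.14e-07) and -0.69 ± 0.098 in EAT (adjusted p = 2.37e-05).

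Rora, a receptor of the clock and of lipid control, had 4.47, 4.75 and 5.47 FPKM in IAT adipocytes and 5.08, 5.48 and 5.12 FPKM in EAT adipocytes. Rora levels in SVCs were 5.04, 4.19 and 4.94 FPKM in IAT and 8.32, 6.68 and 7.32 FPKM in EAT. Every EAT SVC library stood above every library of the other 3 groups. The SVC depot difference was -0.56 ± 0.094 (limma adjusted p = 4.22e-04), 1.58-fold lower in IAT on FPKM means, and the depot differences of the fractions were 0.48 ± 0.134 apart (adjusted p = 0.0161). In EAT adipocytes Rora was lower than in EAT SVCs by -0.43 ± 0.094 (adjusted p = 8.56e-04), a difference of -0.10 under median-of-ratios scaling (adjusted p = 0.313). Among the SVC marker lists, mesothelial and macrophage markers were lower and T cell, B cell, skeletal muscle and Schwann cell markers higher in IAT. Adipocyte markers were also higher there (10 of 10), as were 4 of 8 endothelial markers, with 0 lower. Fibroblast and progenitor markers were split, with 4 higher and 5 lower, and the 1 tested epididymal epithelium marker was lower. The part of these cells in the Rora and Thrb differences was not tested.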

How the data were processed

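The authors deposited 1 table per library with FPKM values and lower and upper confidence bounds for each gene. TopHat, Cufflinks and the mouse build GRCm38 (mm10) are named per the submitters' processing notes, and versions, settings, annotation and use of strand are not given in the sources used here. The tables hold no read counts. Fragments behind each value were estimated from the bounds, which cover counting error only. Features without a valid estimate in all libraries (9) were left out.

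FPKM values were turned into log2(FPKM + 1), with a pseudocount of 1, which understates the change of genes near or under 1 FPKM. A filter kept the 13175 features that reached 1 FPKM in 3 or more of the 12 libraries. Group means of the 4 groups were estimated in limma 3.58.1 under R 4.3.3, by lmFit and a trended eBayes, with no block. The spread of each gene was taken from all 12 libraries. A library can thus change the p of a comparison that it is not part of. Tests were two-sided and adjusted by Benjamini-Hochberg over all features, and an adjusted p under 0.05 was called. Differences are IAT minus EAT and adipocytes minus SVCs, given ± SE, and FPKM means ± SD. Fold ratios are of FPKM means. The fit was tested on simulated data. Python 3.11.15 with pandas 2.3.3 and NumPy 2.4.6 made the tables, and matplotlib 3.10.9 the figures.

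All 35 receptors are accounted for. From each of 8 lists of related genes, the called members with the smallest p in each direction, up to 2 each way, could be named, and of the 10 cell marker lists the sums and Adipoq. One such gene is not reported here. The rule for the receptors uses symbols alone, but receptors and lists were chosen with earlier results of these data known. Promoter windows are from RefSeq (GRCm38.p6). Alternatives were other pseudocounts, other filters, 2 other scalings, a fit on the compared groups, no trend, a replicate block and omission of each library in turn. A correction for gene length within each library was chosen after seeing the data.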

Additional observations from a re-analysis of the deposited data

Results flagged for a closer look

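For 9 receptors the depot difference (IAT minus EAT, log2(FPKM + 1)) differed between adipocytes and SVCs by an interaction term over all 12 libraries, at a limma adjusted p under 0.05. The signed difference in adipocytes minus that in SVCs was 0.87 for Vdr, 0.71 for Nr1h4, 0.68 for Rarb, 0.66 for Ppard, 0.48 for Rora, 0.45 for Thrb, 0.39 for Ppara and 0.38 for Esrra. For Rxrg it was -0.74. For Vdr, Nr1h4, Rora and Thrb the depot difference was smaller in size in adipocytes (-0.09, -0.11, -0.08 and -0.13) than in SVCs (-0.97, -0.82, -0.56 and -0.57). On FPKM means, adipocytes of IAT were 4.93-fold lower for Vdr and 4.83-fold for Nr1h4, both on few fragments. The ratios in SVCs were 6.05 and 2.29. A pseudocount of 1 shrinks differences between values this low. With a pseudocount of 0.1 the Nr1h4 term was 0.42 and not called (adjusted p = 0.324), while that of Vdr stayed called (adjusted p = 0.00254). These are 9 of 24 receptors tested, or 37.5%, beside 32.5% of all features. Rarb and Ppard had a called depot difference in adipocytes, Vdr, Nr1h4, Rora and Thrb in SVCs and Rxrg in both, while Ppara and Esrra had none in either. The interaction calls of Ppara and Esrra were lost under 9 and 8 of 21 alternatives. The cell makeup of the SVCs also differed between depots, as the marker sums show, and its part in these differences was not tested.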

How the results depend on the processing

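Of 59 receptor differences called, 46 kept their direction and call under all alternatives run. The called receptors in SVCs between depots numbered 13 (3 higher and 10 lower in IAT) in a fit on the SVC libraries alone, against 8. Counts in this section are given without the share of all features under the same fit, and so say nothing particular to receptors. Leaving out 1 library gave 5 to 9 called receptors between depots in adipocytes, 6 to 13 in SVCs, 16 to 20 between fractions in IAT, 17 to 20 in EAT and 7 to 14 for the difference of depot differences. The highest counts in SVCs (13) and for the difference (14, of which 10 higher and 4 lower) came without replicate 1 of EAT adipocytes. Some values changed sign, among them 16 of the 24 receptor differences that no fit called. Of the rest, Nr2c1, Nr3c1 and Rxrb in IAT and Rxrb in EAT were called after the change, all between fractions under median-of-ratios scaling (adjusted p = 0.00207 for Nr2c1, 0.00371 for Nr3c1 and 0.0136 for Rxrb in EAT), and Rxrb in IAT was called before it too. Between fractions of IAT, Nr2c1 was 0.31, Nr3c1 0.33 and Rxrb 0.19 under median-of-ratios scaling, Nr2c1 0.09 and Nr3c1 0.04 on the TPM scale, Nr2c1 0.02 and Nr3c1 0.00 with the length trend removed, Nr2c1 ran from -0.06 to 0.05 with 1 library left out (0.02 and 0.05 without replicate 1 of IAT adipocytes and replicate 3 of IAT SVCs), and Rora was -0.03 without replicate 3 of IAT adipocytes or replicate 2 of IAT SVCs. Between fractions of EAT, Nr2f6 was 0.10 and Rxrb 0.23 under median-of-ratios scaling, and Ppard and Nr2c1 were 0.00 without replicate 2 of EAT adipocytes and of EAT SVCs. Rara between depots in SVCs was -0.01 on the TPM scale. The cause was not tested. Same-numbered libraries deviated from their group means with r of -0.312 to 0.373 across genes. Such values cannot show whether the same number means the same mice, which the labels do not say. With a replicate block the called receptors were 6 and 9 between depots in adipocytes and SVCs, 18 in each fraction comparison and 8 for the difference. Receptors under 1 FPKM rest on few fragments, and depth limits their differences.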
